A study of Mus musculus with 12 samples.

Results

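The glucuronidation, sulfation and carboxylesterase enzymes of mouse liver were taken from a count table of 24532 genes by symbol. The symbols begin with Ugt1, Ugt2 or Ugt3 (UDP-glucuronosyltransferases and their relatives), Sult (cytosolic sulfotransferases) or Ces (carboxylesterases). This gave 60 genes, of which 20 are Ugt, 21 Sult and 19 Ces genes. A filter on low counts kept 47 of them, namely 18 Ugt, 12 Sult and 17 Ces genes. The 13 set aside held 0 to 191 counts summed over all libraries, and 2 of them (Sult6b2 and Ugt2a2) held none. The others set aside were Ces2f, Ces5a, Sult1c1, Sult2a3, Sult2a4, Sult2a5, Sult2a6, Sult2b1, Sult3a2, Sult6b1 and Ugt2a1.

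RNA was sequenced from pieces of liver of C57BL/6x129S6/SvEv mice at 20 wk, in 3 groups of 4 libraries. KO_drug denotes Atp7b-/- mice fed an agonist of LXR, the oxysterol-activated nuclear receptor, KO denotes Atp7b-/- mice, and Het denotes the controls, whose genotype label gives no further detail of the allele. The mice thus share a mixed strain background, and neither their sex nor the agonist's name, dose or duration is stated in the sources used here. ATP7B is the hepatocyte's copper-exporting ATPase, and its loss is the cause of Wilson disease. The comparisons ask what loss of Atp7b changes in liver RNA (KO vs Het), what the agonist changes in the knockout (KO_drug vs KO), and how far the treated knockout stands from the controls (KO_drug vs Het).

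Glucuronosyltransferases sit in the endoplasmic reticulum and attach glucuronic acid, carried by UDP-glucuronic acid, to bilirubin, steroids, bile acids and drugs. Sulfotransferases of the cytosol move a sulfate group from the donor PAPS to hormones, bile acids and phenols. Carboxylesterases cleave ester bonds of drugs and of neutral lipids, so that in hepatocytes they belong to both drug clearance and lipid turnover.

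Library totals ran between 16535938 and 28329751 counts. Levels below are CPM (counts relative to the TMM-scaled library size), and values in every library are given in the order KO_drug 1 to 4, then KO 2, 4, 5 and 6, then Het 1 to 4. Atp7b stood at 1.27 to 3.49 CPM in KO_drug, 1.68 to 2.71 CPM in KO and 9.90 to 16.2 CPM in Het, so that both knockout groups lay below the Het libraries. KO 5 and KO 6 stood apart from the other 10 libraries. Of Xist, which silences an X chromosome in female cells, KO 5 held 81.8 CPM, KO 6 held 17.8 CPM and no other library more than 0.425 CPM. Of the Y-linked gene Ddx3y, KO 5 held 0.379 CPM, KO 6 held 64.4 CPM and the others 79.5 to 111 CPM. Calls lost without both are given a second time, with KO 2 and KO 4 alone as the KO group.

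Among markers of hepatocytes, the cells that hold most of these enzymes, 5 of 8 were lower in KO than in Het and none was higher. The 8 markers summed to 58976 to 81149 CPM in KO_drug, 37295 to 69093 CPM in KO and 70311 to 126655 CPM in Het, and in KO they were lower in KO 2 and KO 4 (39545 and 37295 CPM) than in KO 5 and KO 6 (64361 and 69093 CPM). All 8 macrophage markers were higher in KO than in Het, and they summed to 439.8 to 989 CPM in KO_drug, 917 to 1981 CPM in KO and 385 to 524 CPM in Het. Of the other marker lists, 4 of 4 tested T and NK cell markers, 4 of 4 neutrophil markers, 2 of 6 cholangiocyte markers, 4 of 6 stellate cell and fibroblast markers and 2 of 5 endothelial markers were higher in KO than in Het, and none was lower. In KO_drug vs KO, 1 hepatocyte marker was higher, and 5 macrophage, 2 T and NK cell, 2 cholangiocyte, 4 stellate cell and 2 endothelial markers were lower. In KO_drug vs Het, 1 macrophage and 2 neutrophil markers were higher. The summed levels in KO_drug, KO and Het were 0.469 to 2.07, 3.42 to 10.1 and 0.361 to 1.14 CPM for T and NK cells, 8.77 to 29.3, 11.0 to 72.1 and 0.952 to 5.97 CPM for neutrophils, 20.5 to 31.4, 51.6 to 143 and 19.0 to 26.1 CPM for cholangiocytes, 213 to 257, 384 to 647 and 249.3 to 288 CPM for stellate cells and fibroblasts, and 244 to 327, 294 to 317 and 226 to 359.6 CPM for endothelial cells. Of 8 markers of kidney, gut and pancreas 3 passed the filter, with a summed level of 14.3 to 27.4 CPM in KO_drug, 28.0 to 50.3 CPM in KO and 22.4 to 53.5 CPM in Het, and Umod and Cpa1 had no count in any library. In pieces of liver, fewer hepatocytes and less RNA per hepatocyte cannot be told apart, and the part of these cell markers in the results below was not tested.

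In KO vs Het, 13 of the 47 enzymes were called higher and 24 lower, against 23% of all 13379 tested genes called higher and 17.7% called lower (40.7% in either direction). The KO libraries all lay above the Het libraries for 9 enzymes and all below for 21, against 22.2% and 17.1% of all genes (39.3% together). The median log2 change of the 47 was -0.71, beside 0.02 over all tested genes. In KO_drug vs KO, 19 were called higher and 1 lower, against 8.8% and 11% of all genes (19.8% in either direction), with a median of 0.62 beside -0.02. The groups did not overlap for 18 enzymes above and 2 below, against 11.4% and 12.5% of all genes (23.9% together). In KO_drug vs Het, 11 were called higher and 7 lower, against 13% and 8.45% of all genes (21.4% in either direction), with a median of 0.34 beside -0.00. The groups did not overlap for 11 above and 5 below, against 13.6% and 11% of all genes (24.6% together). Each pair of comparisons shares a group of libraries, so they are not separate evidence.

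Scaling to total counts in place of TMM shifts the median of all genes by about as much as several changes below, to 0.54 for KO vs Het, to -0.36 for KO_drug vs KO and to 0.18 for KO_drug vs Het. Under it the enzymes split into 17 higher and 18 lower in KO vs Het, 12 and 4 in KO_drug vs KO, and 15 and 5 in KO_drug vs Het. Of all 13379 tested genes, it called 7369, 4255 and 2932 in the same order, in either direction. TMM called 5448, 2654 and 2865. The calls lost under total-count scaling were those of Ugt1a2, Ugt1a5, Ugt2b5, Ugt2b36, Ugt3a1 and Sult1c2 in KO vs Het (adjusted p = 0.0546 to 0.315), of Ugt1a10, Ugt2a3, Ugt3a2, Sult1c2, Sult1d1, Ces1b and Ces1c in KO_drug vs KO (0.0578 to 0.187), and of Ugt2a3 (0.0692) and Sult5a1 (0.0520) in KO_drug vs Het. With KO 2 and KO 4 alone as the KO group, the split was 8 higher and 22 lower in KO vs Het and 18 higher and 0 lower in KO_drug vs KO. That setting called 4842 and 2661 of all 13789 genes it tested, in the same order. All directions given are relative to the TMM median, and an enzyme described as not called was not called under TMM.

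**Figure D1:**
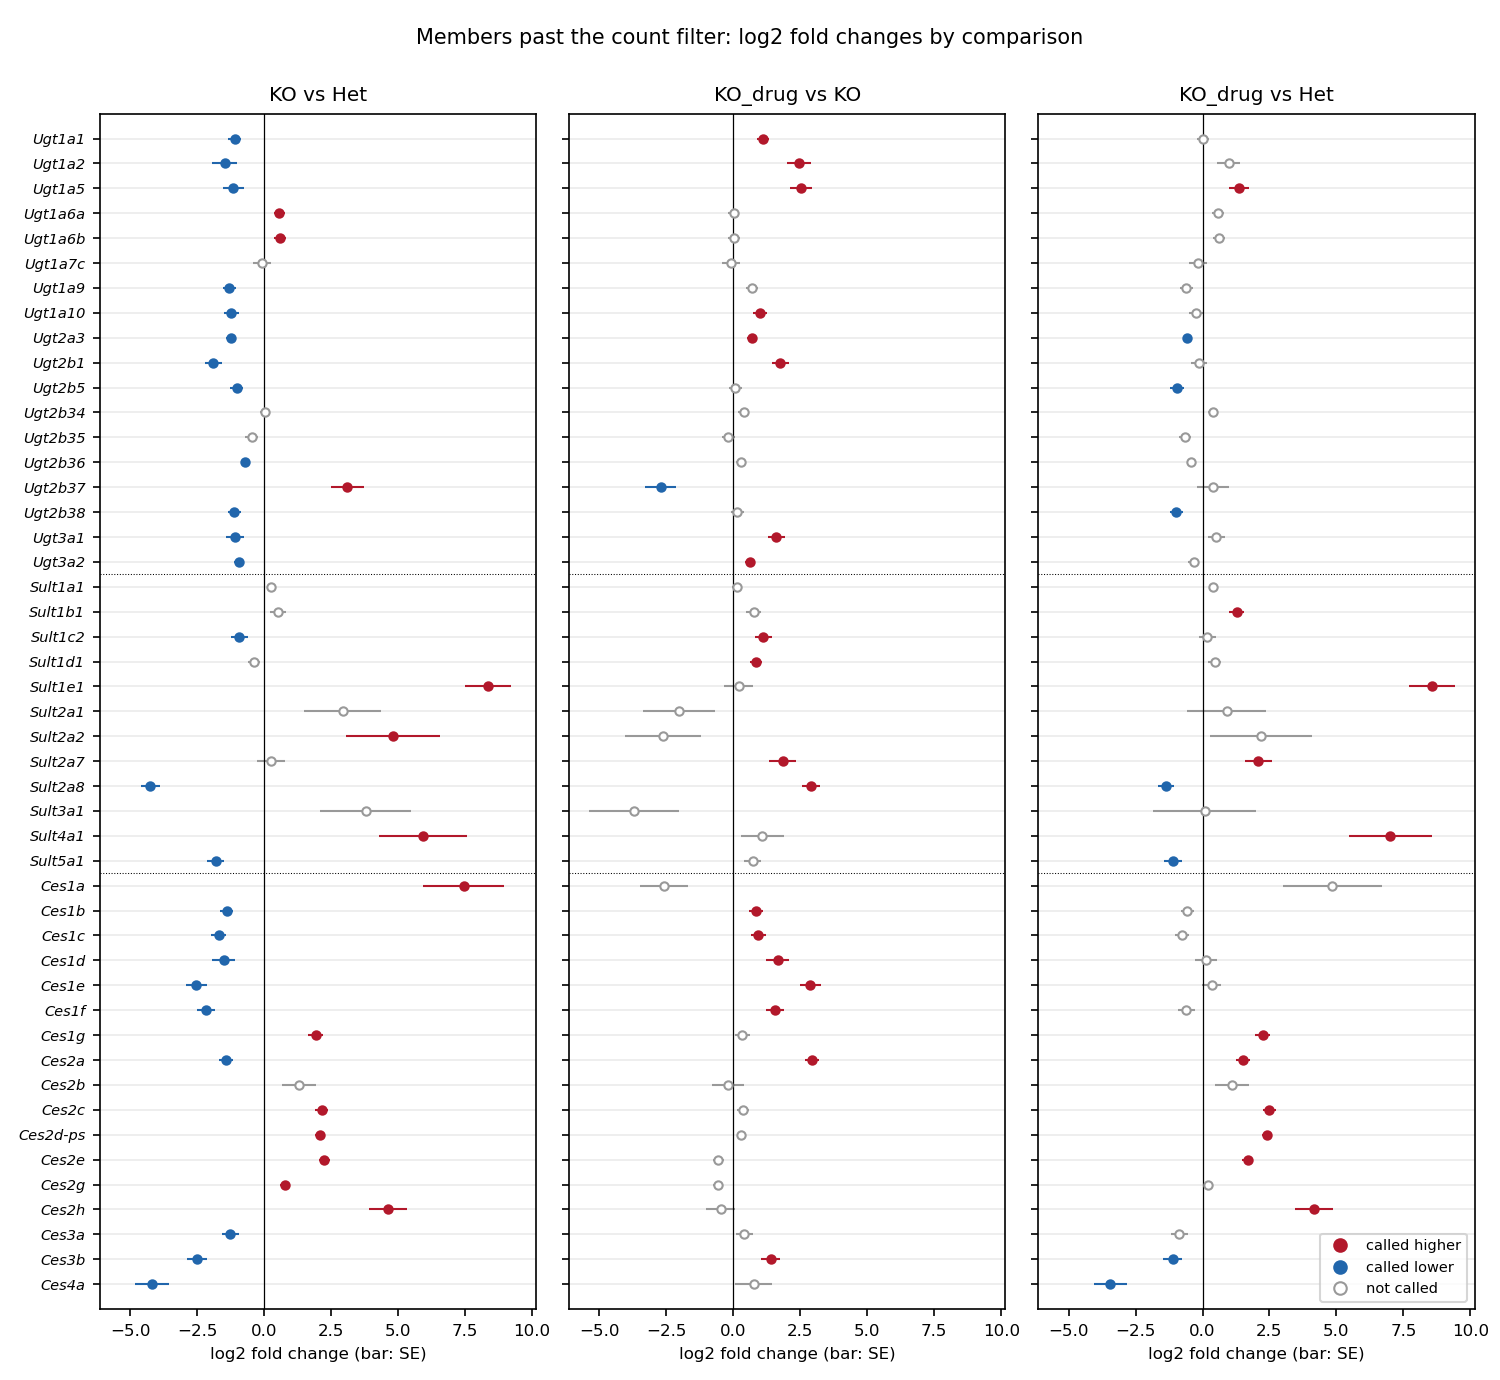
Log2 fold changes (x axis) of the 47 enzymes past the count filter (rows) in the 3 comparisons, with bars for the standard error. Filled points are called at an adjusted p under 0.05. In KO vs Het 13 lie to the right and 24 to the left among the called points, while in KO_drug vs KO Ugt2b37 is the 1 called point to the left. Sult4a1 and Ces1a had no count in Het, so the size of their change against Het depends on the fit.

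The Ugt genes were mostly lower in KO and in part higher again with the agonist. Of 18 tested, 12 fell and 3 rose in KO vs Het (7 and 4 under total-count scaling), 8 rose and 1 fell in KO_drug vs KO (5 and 1), and 1 rose and 3 fell in KO_drug vs Het (4 and 2). In KO vs Het this was 16.7% higher and 66.7% lower, beside 23% and 17.7% of all tested genes. The shares were 44.4% and 5.56% in KO_drug vs KO, beside 8.8% and 11%. In KO_drug vs Het they were 5.56% and 16.7%, beside 13% and 8.45%. The genes fall into a Ugt1a cluster of 8 (chr1:88055411-88220002, mm10), a Ugt2 cluster of 10 (chr5:86889770-87490871) and the neighbours Ugt3a1 and Ugt3a2 (chr15:9279822-9370955).

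The Ugt1a genes each have a promoter and first exon of their own and share the exons that follow, so between 38.9% and 80.7% of the 50-base stretches of each transcript also occur in another gene, and counts of single Ugt1a genes carry that limit.

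Ugt1a1, the transferase that conjugates bilirubin, had 327, 337, 228 and 245 CPM in KO_drug, 112, 102, 157 and 155 CPM in KO, and 172, 323, 369 and 263 CPM in Het. All 4 KO libraries lay below every KO_drug and every Het library, and KO_drug overlapped Het. KO lay 2.14-fold below Het (log2 change -1.10, SE 0.24, adjusted p = 0.00254), KO_drug lay 2.16-fold above KO (1.11, SE 0.24, adjusted p = 0.00656), and KO_drug and Het differed by 0.01 (SE 0.23, adjusted p = 0.982). Ugt1a9, whose human counterpart conjugates bulky phenols, had 295, 489, 454 and 362 CPM in KO_drug, 259, 176, 262 and 289 CPM in KO, and 371, 645, 822 and 601 CPM in Het. It was 2.47-fold lower in KO (log2 -1.31, SE 0.24), where no library reached the KO_drug or the Het range, and its KO_drug vs KO difference of 0.70 was not called (adjusted p = 0.0578).

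Ugt1a5 stood highest with the agonist. It had 44.3, 80.0, 40.5 and 18.6 CPM in KO_drug, 9.50, 5.18, 7.41 and 9.63 CPM in KO, and 9.49, 14.9, 24.9 and 21.9 CPM in Het. KO_drug lay above KO throughout and was 5.77-fold higher (log2 2.53, SE 0.40, adjusted p = 0.00184), while KO_drug 4 fell within the Het range. Its other calls were near the threshold. The fall in KO vs Het (log2 -1.16, adjusted p = 0.0303) was -0.96 to -1.12 with an adjusted p of 0.0651 to 0.0861 without KO 4, KO 5, Het 3 or Het 4, and -1.33 (adjusted p = 0.0765) with KO 2 and KO 4 alone. It was -0.63 (adjusted p = 0.154) under total-count scaling and -0.56 (adjusted p = 0.204) on FPKM. The rise in KO_drug vs Het (1.36, adjusted p = 0.0228) was 0.95 to 1.28, with an adjusted p of 0.0580 to 0.0726, without KO_drug 2, Het 1 or Het 2. Of the scarcer members, Ugt1a2 averaged 4.37 ± 1.91 CPM in KO_drug, 0.785 ± 0.330 CPM in KO and 2.23 ± 1.09 CPM in Het (SD, n = 4 each). It was 5.48-fold higher in KO_drug than in KO, and its call in KO vs Het (log2 -1.48, adjusted p = 0.0202) was lost without Het 2, Het 3, KO 4 or KO 5 (adjusted p = 0.0519 to 0.0661) and with KO 2 and KO 4 alone (0.0898). Ugt1a10 averaged 5.13 ± 0.599 CPM in KO_drug, 2.58 ± 0.437 CPM in KO and 6.05 ± 2.72 CPM in Het, with log2 changes of -1.22 in KO vs Het and 0.99 in KO_drug vs KO, the second not called without KO 2, KO 4 or KO_drug 3 (adjusted p = 0.0530 to 0.0674). Ugt1a7c, at 1.77 ± 0.329 CPM in KO_drug, 1.87 ± 0.459 CPM in KO and 1.99 ± 0.947 CPM in Het, was called in no comparison.

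The phenol transferases Ugt1a6a and Ugt1a6b went the other way. Ugt1a6a had 207, 193, 270.3 and 204 CPM in KO_drug, 248, 174, 214 and 232 CPM in KO, and 88.9, 194, 163 and 139 CPM in Het. Ugt1a6b had 287, 281, 369.5 and 309 CPM in KO_drug, 343, 234, 333 and 319 CPM in KO, and 111, 254, 230.2 and 215 CPM in Het. For both genes KO overlapped Het through KO 4, and Het 1 was the lowest library. They were called higher in KO than in Het at the edge of the threshold (log2 0.57 and 0.60, adjusted p = 0.0450 and 0.0456). Leaving out Het 1, Het 3, Het 4, KO 2, KO 5 or KO 6 lost the call, with an adjusted p of 0.0576 to 0.113 for Ugt1a6a and 0.0554 to 0.105 for Ugt1a6b, and with KO 2 and KO 4 alone it was 0.218 and 0.262. Within single libraries, the ratio of Ugt1a1 to Ugt1a6a in FPKM, the deposited level per transcript length and library size, ran from 0.864 to 1.78 in KO_drug, 0.463 to 0.753 in KO and 1.70 to 2.31 in Het, and the KO range overlapped neither of the others. This ratio does not depend on library scaling. The calls of Ugt1a6a and Ugt1a6b in KO vs Het held under total-count scaling, with DESeq2 and on FPKM. In FPKM all KO libraries lay above all Het libraries, at 55.3 to 73.1 against 21.4 to 36.2 for Ugt1a6a. For Ugt1a6b the FPKM ranges were 107 to 145 against 38.6 to 68.3.

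**Figure D2:**
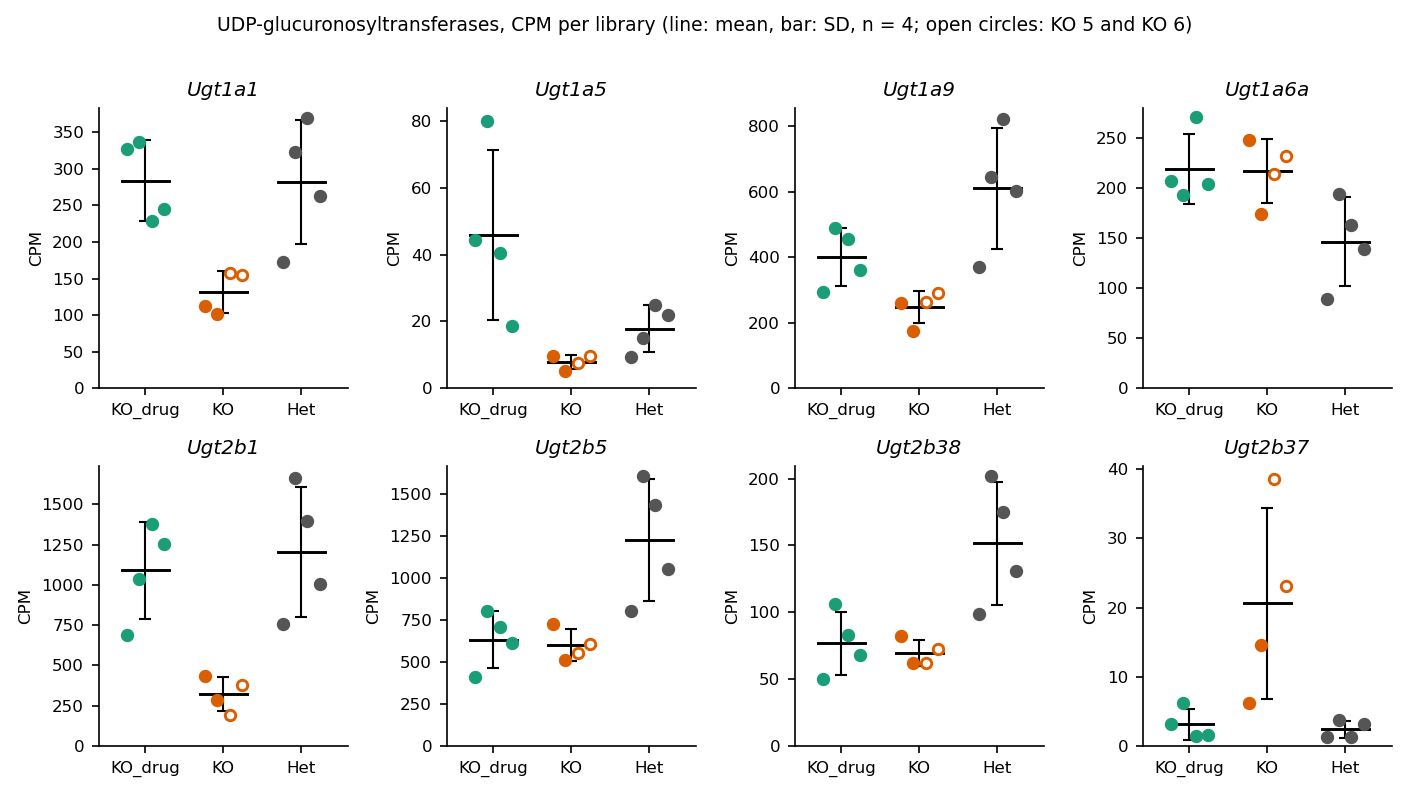
CPM (y axis, from 0) of 8 Ugt genes in each library, with the mean as a line and the SD as a bar (n = 4 per group). KO 5 and KO 6, the libraries with Xist, are open circles. The KO points of Ugt1a1 and Ugt2b1 lie below all others, and those of Ugt2b37 lie above all Het points, with KO 5 at 38.6 CPM.

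In the Ugt2 cluster, Ugt2b1 fell in KO and rose with the agonist. It had 689.7, 1037, 1376 and 1255 CPM in KO_drug, 433, 287, 195 and 379 CPM in KO, and 754, 1663, 1395 and 1007 CPM in Het. KO lay below both other groups without overlap, and KO_drug overlapped Het. The gene was lower in KO than in Het by 3.72-fold (log2 change -1.90, SE 0.31, adjusted p = 0.000441) and 3.37-fold higher in KO_drug than in KO (1.75, SE 0.31, adjusted p = 0.00286). By summed FPKM of all Ugt genes, Ugt2b1 took 20.1 ± 3.46% in KO_drug, 8.52 ± 2.25% in KO and 17.7 ± 1.41% in Het (SD, n = 4 each). No 50-base stretch of its transcript occurs in another gene.

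Ugt2b5, Ugt2b36 and Ugt2b38 were lower in KO and did not pass the test in KO_drug vs KO. Ugt2b5 had 408, 802, 709.9 and 611 CPM in KO_drug, 726, 512, 555 and 609.5 CPM in KO, and 806, 1604, 1435 and 1054 CPM in Het. Both knockout groups lay below all Het libraries, by 1.03 (SE 0.24) in KO and 0.95 (SE 0.24) in KO_drug on the log2 scale. Ugt2b38 had 49.96, 106, 83.1 and 68.2 CPM in KO_drug, 82.2, 61.7, 62.4 and 72.3 CPM in KO, and 98.4, 202, 175 and 131 CPM in Het. It was lower by a log2 change of -1.12 (SE 0.24) in KO vs Het, without overlap, and of -0.98 (SE 0.24) in KO_drug vs Het, where KO_drug 2 reached the Het range. Ugt2b36 had 394, 541, 681 and 544 CPM in KO_drug, 443, 399.8, 434 and 493 CPM in KO, and 612, 846, 789 and 641 CPM in Het. It fell by 0.71 (SE 0.17) in KO vs Het, and total-count scaling did not call it (log2 -0.17, adjusted p = 0.315) nor Ugt2b5 (-0.48, adjusted p = 0.0546). Ugt2b5 and Ugt2b38 share sequence, with 41.7% and 37.4% of their 50-base stretches found in another gene, each mainly in the other. Ugt2b34 (855 ± 92.6 CPM in KO_drug, 657 ± 80.9 CPM in KO, 650.0 ± 179 CPM in Het) and Ugt2b35 (189.6 ± 54.1, 215 ± 23.1 and 298 ± 100.3 CPM in the same order) were called in no comparison under TMM. In FPKM the KO libraries of Ugt2b34 (192 to 231) all lay above its Het libraries (122 to 177).

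Ugt2b37 ran against most of the family in both comparisons with KO. It had 3.23, 6.25, 1.49 and 1.54 CPM in KO_drug, 6.16, 14.6, 38.6 and 23.1 CPM in KO, and 1.24, 3.79, 1.38 and 3.16 CPM in Het. All KO libraries lay above Het, and KO 2 fell within the KO_drug range. It was 8.59-fold higher in KO than in Het (log2 change 3.10, SE 0.60, adjusted p = 0.00143) and KO_drug lay below KO by 6.57-fold (-2.71, SE 0.59, adjusted p = 0.00746). The 2 highest values were those of KO 5 and KO 6. With KO 2 and KO 4 alone the changes were 2.05 (adjusted p = 0.0198) and -1.68 (adjusted p = 0.0670, not called).

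Its upstream sequence is close to that of Ugt2b38, which moved the other way in KO vs Het. The 250 bases before each start were aligned, and 225 of 236 aligned positions (95.3%) were identical, or 85.2% with gaps counted. Both are on the minus strand of GRCm38.p6, at chr5:87254789-87255038 (Ugt2b37) and chr5:87424204-87424453 (Ugt2b38). Capitals mark bases that differ from, or are absent in, the other window, and the runs of capitals at the ends come from the offset of the windows.
Ugt2b37: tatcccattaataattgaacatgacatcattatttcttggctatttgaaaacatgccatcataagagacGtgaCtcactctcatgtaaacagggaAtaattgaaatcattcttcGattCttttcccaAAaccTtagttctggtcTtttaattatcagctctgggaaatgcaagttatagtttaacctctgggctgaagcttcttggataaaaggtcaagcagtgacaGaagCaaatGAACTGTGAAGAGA
Ugt2b38: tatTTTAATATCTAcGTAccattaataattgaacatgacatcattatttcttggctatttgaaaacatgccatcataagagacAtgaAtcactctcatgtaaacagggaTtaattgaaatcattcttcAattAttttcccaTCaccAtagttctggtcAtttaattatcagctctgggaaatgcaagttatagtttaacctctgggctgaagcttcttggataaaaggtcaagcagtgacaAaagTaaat

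The remaining Ugt genes followed the common pattern. Ugt2a3 had 199.996, 245, 281 and 232 CPM in KO_drug, 165, 124, 131 and 178 CPM in KO, and 288, 439, 391 and 299 CPM in Het. The 3 groups did not overlap, and the log2 changes were -1.24 (SE 0.18) in KO vs Het, 0.68 (SE 0.18) in KO_drug vs KO and -0.56 (SE 0.18) in KO_drug vs Het. The second call was lost without KO_drug 3 or KO 4 (adjusted p = 0.0575 and 0.0627), and the third without KO_drug 1, KO_drug 2, KO_drug 4, Het 2 or Het 3 (adjusted p = 0.0603 to 0.112). Ugt3a1, a relative that uses UDP-N-acetylglucosamine in place of UDP-glucuronic acid, had 16.9, 36.1, 16.1 and 21.0 CPM in KO_drug, 4.90, 5.27, 12.3 and 6.93 CPM in KO, and 15.7, 13.0, 21.6 and 12.8 CPM in Het. KO lay below both other groups, 2.14-fold below Het (log2 -1.10, adjusted p = 0.0163, or 0.0516 without Het 3) and 3.05-fold below KO_drug. Its neighbour Ugt3a2 had 213, 319, 286 and 264 CPM in KO_drug, 179.9, 129.9, 192 and 204 CPM in KO, and 235, 392, 409 and 322 CPM in Het. KO lay 1.92-fold below Het, and its rise in KO_drug vs KO (log2 0.62, adjusted p = 0.0440) was lost without KO 2, KO 4, KO 5, KO_drug 2, KO_drug 3 or KO_drug 4 (adjusted p = 0.0625 to 0.128).

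The Sult genes held both the highest and the lowest log2 change of the 47 enzymes in KO vs Het, those of Sult1e1 and Sult2a8. Of 12 tested, 3 rose and 3 fell in KO vs Het (5 and 2 under total-count scaling), 4 rose and none fell in KO_drug vs KO (2 and 0, and 1 and 0 on FPKM), and 4 rose and 2 fell in KO_drug vs Het (5 and 1). In KO vs Het this was 25% higher and 25% lower, near the 23% and 17.7% of all tested genes. The shares were 33.3% and 0% in KO_drug vs KO, beside 8.8% and 11%. In KO_drug vs Het they were 33.3% and 16.7%, beside 13% and 8.45%.

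Sult1e1 (gene number 20860), which sulfates and thereby inactivates estrogens, had 212, 24.3, 57.8 and 84.0 CPM in KO_drug, 73.8, 115, 54.3 and 87.3 CPM in KO, and 0.670, 0, 0 and 0.306 CPM in Het. The Het libraries together held 19 counts, against 7300 in KO_drug and 8910 in KO, and every knockout library lay above every Het library. The gene was higher by a log2 change of 8.36 (SE 0.86, adjusted p = 1.4e-05) in KO vs Het and of 8.55 (SE 0.86, adjusted p = 1.47e-05) in KO_drug vs Het. The size rests on few Het counts, since it was 9.56 and 9.76 without Het 1, and 7.78 in KO_drug vs Het without KO_drug 1. The difference between KO_drug and KO was 0.20 (SE 0.54, adjusted p = 0.834). No 50-base stretch of its transcript occurs in another gene. Sult1e1 lies beside Sult1b1 and Sult1d1 (chr5:87513327-87591611), next to the Ugt2 cluster, and neither neighbour was called in KO vs Het.

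Sult2a8 (gene number 76971), a hydroxysteroid sulfotransferase known in mouse liver for sulfating bile acids, had 199, 494, 418 and 444 CPM in KO_drug, 79.7, 43.4, 35.8 and 50.1 CPM in KO, and 1404, 859.6, 897 and 821 CPM in Het. The 3 groups did not overlap in any pair. KO lay 19.0-fold below Het (log2 change -4.25, SE 0.34, adjusted p = 2.05e-06), KO_drug lay 7.44-fold above KO (2.90, SE 0.32, adjusted p = 0.000387), and KO_drug lay 2.56-fold below Het (-1.36, SE 0.31, adjusted p = 0.00677). No 50-base stretch of its transcript occurs in another gene. KO 2 and KO 4, the libraries without Xist, had 79.7 and 43.4 CPM, and KO 5 and KO 6 had 35.8 and 50.1 CPM.

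The make-up of the Sult RNA changed accordingly. By summed Sult FPKM, Sult2a8 took 29.5 ± 9.60% in KO_drug, 6.68 ± 2.94% in KO and 63.2 ± 3.94% in Het (SD, n = 4 each). Sult1e1 took 12.2 ± 11.0% in KO_drug, 17.2 ± 4.77% in KO and 0.022 ± 0.026% in Het. Sult1a1, the general phenol sulfotransferase, was called in no comparison under TMM (282 ± 28.6 CPM in KO_drug, 259 ± 14.6 CPM in KO and 215 ± 53.1 CPM in Het) and took 33.0 ± 3.73%, 49.9 ± 2.66% and 21.3 ± 4.42% in the same order. In FPKM its KO libraries (171 to 200) all lay above the Het libraries (82.2 to 139). Sult1a1 overlaps Gm6939 and Slx1b, and since the counting strand is not stated, their reads may not be separable.

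**Figure D3:**
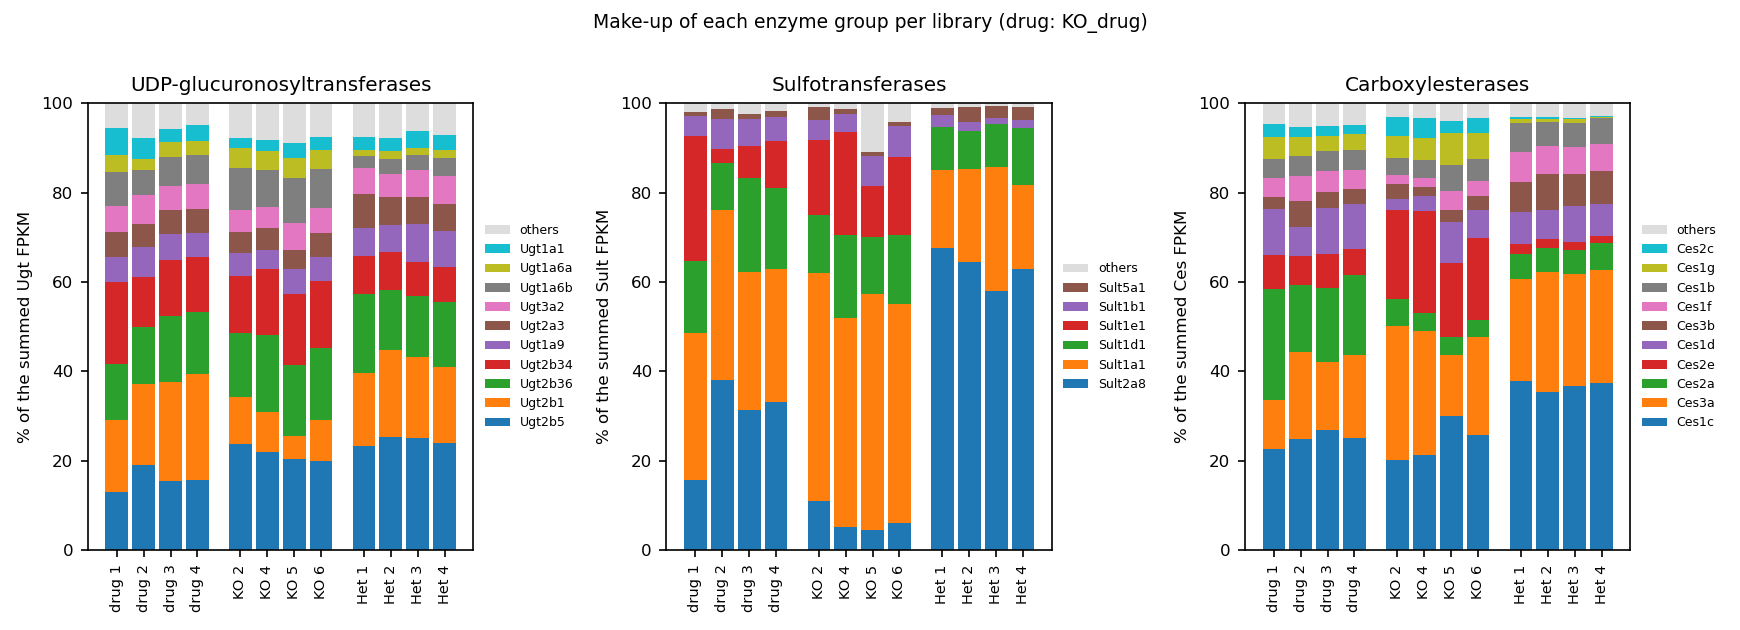
Share of each superfamily's summed FPKM (y axis, percent) taken by its leading members, as 1 stacked bar per library from KO_drug through KO to Het. In the Sult panel Sult2a8 holds on average 29.5% in KO_drug, 6.68% in KO and 63.2% in Het (n = 4 each).

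The other abundant Sult genes changed less. Sult1d1, which sulfates catecholamines and other phenols in the mouse, had 230.2, 156, 323 and 278 CPM in KO_drug, 107, 177, 115 and 149.5 CPM in KO, and 227, 129, 171 and 189 CPM in Het. The groups overlapped, and its rise in KO_drug vs KO (log2 0.85, adjusted p = 0.0261) was lost without KO 2, KO 5, KO_drug 3 or KO_drug 4 (adjusted p = 0.0619 to 0.0831) and with KO 2 and KO 4 alone (0.0875). Sult1b1, a transferase for thyroid hormones and phenols, had 71.6, 108, 99.5 and 90.2 CPM in KO_drug, 39.4, 41.6, 65.7 and 72.1 CPM in KO, and 66.5, 30.3, 27.8 and 28.7 CPM in Het. KO_drug lay above Het, 2.41-fold higher (log2 1.27, SE 0.29, adjusted p = 0.00747), and the other 2 comparisons were not called. Sult5a1 had 6.36, 15.2, 8.72 and 10.7 CPM in KO_drug, 11.4, 4.57, 4.52 and 4.31 CPM in KO, and 19.1, 26.0, 21.9 and 21.0 CPM in Het. Both knockout groups lay below Het, by 1.82 (SE 0.33) in KO and 1.10 (SE 0.32) in KO_drug on the log2 scale, and the KO_drug call was lost without KO_drug 1, KO_drug 3, KO_drug 4 or Het 2 (adjusted p = 0.0564 to 0.0717).

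The scarce Sult genes rested on few counts. Sult1c2 averaged 6.15 ± 2.46 CPM in KO_drug, 2.83 ± 1.07 CPM in KO and 5.41 ± 0.827 CPM in Het, with calls in KO vs Het (log2 -0.93) and KO_drug vs KO (1.11). The first was lost without KO 2, KO 4, Het 1 or Het 3 (adjusted p = 0.0587 to 0.0867) and the second without KO 2, KO 4, KO_drug 2 or KO_drug 3 (adjusted p = 0.0749 to 0.0823). Sult2a7 averaged 4.41 ± 3.15 CPM in KO_drug, 1.23 ± 0.370 CPM in KO and 1.03 ± 0.328 CPM in Het. It was higher in KO_drug by 1.84 against KO, which was lost without KO_drug 3, KO_drug 4 or KO 4 (adjusted p = 0.0532 to 0.0789) and with KO 2 and KO 4 alone (0.0860), and by 2.08 against Het. Sult4a1, a sulfotransferase of the brain, had no count in Het. Against 3 counts over the Het libraries it was at least 18.6-fold higher in KO_drug (0.719 ± 0.302 CPM) and at least 8.16-fold higher in KO (0.346 ± 0.277 CPM), and the KO call was lost with KO 2 and KO 4 alone (adjusted p = 0.0970).

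Sult2a1, Sult2a2 and Sult3a1 were highest in KO 5. Sult2a1 and Sult2a2 are known as sulfotransferases of female mouse liver. In KO_drug, Sult2a1, Sult2a2 and Sult3a1 averaged 0.914 ± 1.48, 0.366 ± 0.732 and 0.255 ± 0.335 CPM. Sult2a1 and Sult2a2 had 0, 1.03, 9.81 and 4.14 CPM and 0, 0.607, 6.04 and 2.62 CPM in KO, and Sult3a1 had 0, 0, 11.3 and 2.49 CPM. In Het the 3 genes averaged 0.490 ± 0.747, 0.0774 ± 0.155 and 0.245 ± 0.490 CPM. Sult2a1 and Sult3a1 were called in no comparison. Sult2a2 was called in KO vs Het (log2 4.81, SE 1.74, adjusted p = 0.0416) on 282 counts in KO and 6 in Het. That call was lost without KO 5, KO 6 or any 1 Het library (adjusted p = 0.0529 to 0.129), and with KO 2 and KO 4 alone the log2 change was 1.75 (adjusted p = 0.555). Of the Sult genes set aside, Sult3a2 had 147 of its 191 counts in KO 5, Sult2a5 74 of 119 and Sult2a3 46 of 59. Relative to KO 5, KO 6 held 22.1% of the Sult3a1 level, 17.7% of Sult3a2 and 42.2% of Sult2a1, beside 21.8% of Xist and 21.3% of the female liver gene Cyp2b9. Of 10 listed female-biased liver genes 5 were tested and 3 were higher in KO than in Het, with summed levels of 1407 to 1722 CPM in KO_drug, 741 to 3498 CPM in KO and 33.2 to 65.3 CPM in Het. Of 11 male-biased genes 8 were lower in KO than in Het, with 3032 to 5215 CPM in KO_drug, 1660.2 to 3707 CPM in KO and 5141 to 7637 CPM in Het. Over all tested genes, 23% were called higher and 17.7% lower in KO vs Het. The source of the levels of these sex-biased genes was not tested.

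**Figure D4:**
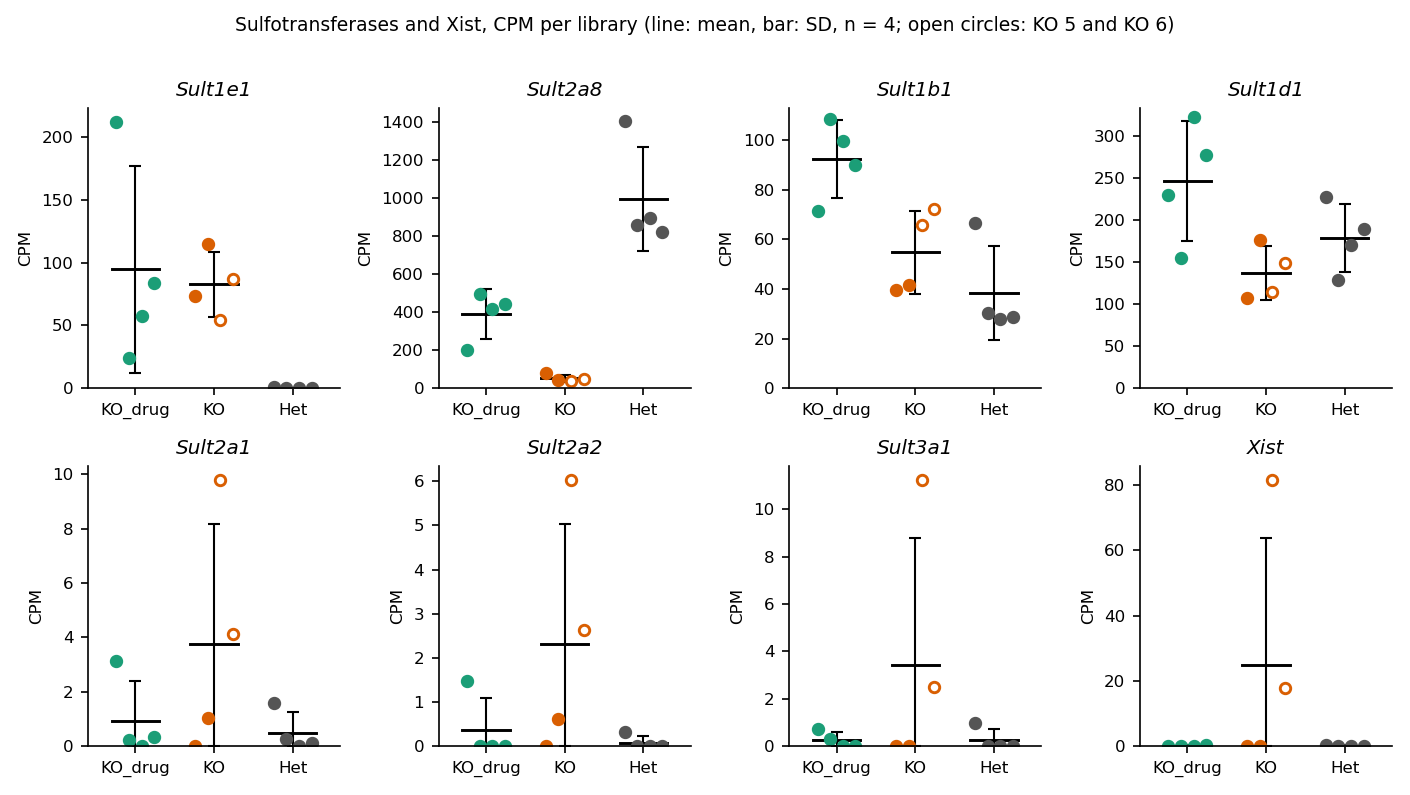
CPM (y axis, from 0) of 7 Sult genes and Xist in each library, with the mean as a line, the SD as a bar (n = 4 per group) and KO 5 and KO 6 as open circles. The KO points of Sult2a8 (35.8 to 79.7 CPM) lie below every KO_drug point (199 to 494 CPM) and every Het point (821 to 1404 CPM).

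The Ces genes split by subfamily in KO vs Het. Of 7 Ces1 genes 5 fell and 2 rose, of 7 tested Ces2 genes 5 rose and 1 fell, and all 3 tested genes of the Ces3 to Ces5 group fell. In KO_drug vs KO, 5 Ces1 genes, 1 Ces2 gene and 1 of the Ces3 to Ces5 group rose and none fell, whereas total-count scaling gave 3 higher and 1 lower for Ces1 and 1 higher and 2 lower for Ces2. In KO_drug vs Het 6 Ces genes were higher, 5 of them Ces2, and 2 were lower. In KO vs Het, 41.2% of tested Ces genes were higher and 52.9% lower, beside 23% and 17.7% of all tested genes. The shares were 41.2% and 0% in KO_drug vs KO, beside 8.8% and 11%. In KO_drug vs Het they were 35.3% and 11.8%, beside 13% and 8.45%. All lie on the chromosome of Atp7b, 71.0 to 83.1 Mb from it, and 18 of the 19 form 3 clusters: Ces1 (chr8:93020214-93337209), Ces2 (chr8:104734003-105020410) and Ces3 with Ces4 (chr8:105048576-105150109). The other, Ces5a, lies between Ces1 and Ces2 (chr8:93499063-93535879). In this mixed strain, alleles linked to Atp7b and the loss of Atp7b cannot be told apart for KO vs Het, and linkage over this distance was not tested.

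Within the Ces2 cluster, Ces2a fell and Ces2e rose in KO, and Ces2a was highest with the agonist. Ces2a (gene number 102022), a hydrolase of lipids and drugs, had 1678, 1221, 1561 and 1396 CPM in KO_drug, 266, 130.3, 181 and 187 CPM in KO, and 287, 607, 635 and 542 CPM in Het. The 3 groups did not overlap in any pair, with KO_drug highest and KO lowest. Ces2a was lower in KO than in Het by 2.71-fold (log2 change -1.44, SE 0.26, adjusted p = 0.000883), 7.66-fold higher in KO_drug than in KO (2.94, SE 0.27, adjusted p = 0.000133) and 2.83-fold higher in KO_drug than in Het (1.50, SE 0.26, adjusted p = 0.00117). Ces2e (gene number 234673) had 532, 553, 742 and 493 CPM in KO_drug, 892, 773, 794 and 949.5 CPM in KO, and 119, 232, 206 and 160.4 CPM in Het. Its groups did not overlap either, but here KO was highest and Het lowest. Ces2e was 4.75-fold higher in KO than in Het (log2 change 2.25, SE 0.21, adjusted p = 7.41e-06) and 3.23-fold higher in KO_drug than in Het (1.69, SE 0.21, adjusted p = 7.61e-05), and its KO_drug vs KO difference of -0.56 was not called (adjusted p = 0.0702).

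The ratio of Ces2e to Ces2a within single libraries, in FPKM, was 0.302 to 0.451 in KO_drug, 3.21 to 5.70 in KO and 0.283 to 0.397 in Het. KO lay apart from both other groups, whose ranges overlapped. Ces2a took 18.6 ± 4.34% of summed Ces FPKM in KO_drug, 4.48 ± 1.13% in KO and 5.58 ± 0.265% in Het, and Ces2e took 6.86 ± 0.788%, 19.4 ± 2.62% and 1.89 ± 0.233% in the same order. Of the 50-base stretches, 22.2% of those of Ces2a and 3.36% of those of Ces2e occur in another gene.

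Ces2c and its pseudogene neighbour Ces2d-ps rose with Ces2e in KO vs Het and were also above Het in KO_drug. Ces2c, a lipid hydrolase, had 200.1, 194, 216 and 171 CPM in KO_drug, 178, 143, 124 and 165 CPM in KO, and 24.8, 55.3, 35.8 and 22.2 CPM in Het. Ces2d-ps had 58.7, 58.3, 62.8 and 51.7 CPM in KO_drug, 54.2, 44.8, 40.1 and 48.6 CPM in KO, and 9.85, 15.6, 11.0 and 7.55 CPM in Het. In both, all knockout libraries lay above Het, and KO_drug overlapped KO. Ces2c was 5.66-fold higher in KO_drug than in Het (log2 change 2.50, SE 0.25) and 4.42-fold higher in KO than in Het (2.14, SE 0.25), and Ces2d-ps 5.26-fold and 4.26-fold. Of the 50-base stretches, 42.2% of those of Ces2c and 76.9% of those of Ces2d-ps occur in another gene. The gene sharing most was Ces2d-ps for Ces2c (38.2%) and Gm8798 for Ces2d-ps (53.0%). Their counts may thus be split with each other and with other genes. Both overlap Gm33218, and Ces2d-ps also overlaps Gm33141.

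The sequences before Ces2c and Ces2a are shown because these genes of the Ces2 cluster, with Ces2b between them, moved in opposite directions in KO vs Het. Of 239 aligned positions 175 (73.2%) were identical, or 67.0% with gaps counted. The sequences before Sult2a8 (chromosome 7) and Sult3a2 (chromosome 10) reached 74.8% without gaps and 50.7% with them. The 73.2% alone therefore does not show relatedness. Both are on the plus strand of GRCm38.p6, at chr8:104846818-104847067 (Ces2c) and chr8:104733753-104734002 (Ces2a), with capitals for bases that differ from, or are absent in, the partner.
Ces2c: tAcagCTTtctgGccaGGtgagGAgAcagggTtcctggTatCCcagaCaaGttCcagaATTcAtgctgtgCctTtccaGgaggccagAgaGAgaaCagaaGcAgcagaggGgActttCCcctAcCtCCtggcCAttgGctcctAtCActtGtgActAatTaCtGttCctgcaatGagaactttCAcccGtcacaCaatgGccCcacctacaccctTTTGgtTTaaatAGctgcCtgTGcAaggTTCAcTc
Ces2a: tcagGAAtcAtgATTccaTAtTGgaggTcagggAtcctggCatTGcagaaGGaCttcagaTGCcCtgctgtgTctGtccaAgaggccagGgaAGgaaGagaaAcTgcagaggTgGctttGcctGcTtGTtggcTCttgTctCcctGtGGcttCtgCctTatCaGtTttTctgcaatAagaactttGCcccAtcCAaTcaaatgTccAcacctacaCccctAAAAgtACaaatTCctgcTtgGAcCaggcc

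The remaining Ces2 genes were scarcer. Ces2g had 40.2, 56.0, 48.8 and 39.7 CPM in KO_drug, 64.1, 51.2, 81.9 and 77.8 CPM in KO, and 25.8, 46.4, 46.9 and 41.3 CPM in Het. KO lay above Het and was 1.71-fold higher (log2 0.78, SE 0.20, adjusted p = 0.00796), but with KO 2 and KO 4 alone the call was lost (adjusted p = 0.158). Ces2h averaged 5.37 ± 2.72 CPM in KO_drug, 7.46 ± 4.68 CPM in KO and 0.296 ± 0.328 CPM in Het. Its log2 changes were 4.63 (SE 0.71) in KO vs Het and 4.15 (SE 0.71) in KO_drug vs Het, or 5.68 and 5.21 without Het 4, and 3.50 in KO vs Het with KO 2 and KO 4 alone. Ces2b, at 3.12 ± 0.668 CPM in KO_drug, 3.56 ± 1.08 CPM in KO and 1.45 ± 1.12 CPM in Het, was called in no comparison under TMM. Total-count scaling and FPKM each called 6 of the 7 tested Ces2 genes higher in KO vs Het, Ces2b among them. In KO_drug vs KO, total-count scaling, DESeq2 and FPKM each called 2 Ces2 genes lower, against 0 in the main fit.

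**Figure D5:**
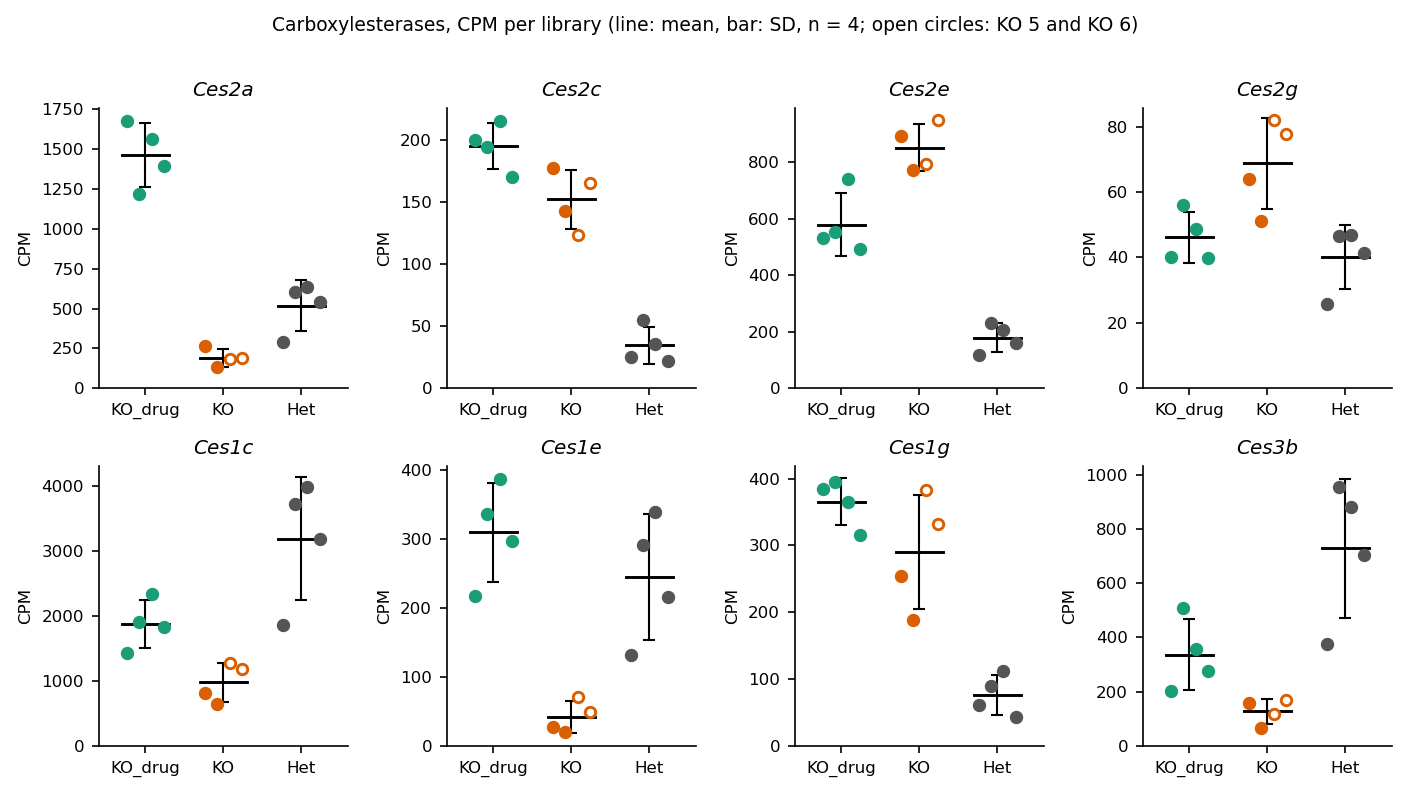
CPM (y axis, from 0) of 8 Ces genes in each library, with the mean as a line and the SD as a bar (n = 4 per group). KO 5 and KO 6 are open circles. Ces2a is highest in KO_drug (1221 to 1678 CPM) and Ces2e in KO (773 to 949.5 CPM).

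In the Ces1 cluster, Ces1b, Ces1c, Ces1d, Ces1e and Ces1f were lower in KO than in Het and higher in KO_drug than in KO. Ces1e (gene number 13897), known as egasyn, which holds beta-glucuronidase in the endoplasmic reticulum, had 218, 336, 387 and 298 CPM in KO_drug, 28.0, 19.7, 71.3 and 50.1 CPM in KO, and 132, 292, 339 and 216 CPM in Het. KO lay below both other groups, which overlapped. The gene was lower in KO than in Het by 5.78-fold (log2 change -2.53, SE 0.39, adjusted p = 0.000297) and 7.32-fold higher in KO_drug than in KO (2.87, SE 0.39, adjusted p = 0.000811). Ces1f had 275, 443, 420.4 and 317 CPM in KO_drug, 82.7, 65.9, 191 and 155 CPM in KO, and 338, 689, 671 and 526 CPM in Het. KO again lay below all other libraries, 4.50-fold below Het and 2.94-fold below KO_drug. Ces1d, a hydrolase that mobilizes stored triglyceride in hepatocytes, had 697, 532, 965 and 788 CPM in KO_drug, 105, 112, 427 and 305 CPM in KO, and 378, 731, 935 and 656 CPM in Het. KO 5 reached the Het range, and all KO libraries lay below KO_drug. Its log2 changes were -1.51 (SE 0.42) in KO vs Het and 1.65 (SE 0.43) in KO_drug vs KO, the second with an adjusted p of 0.0504 without KO_drug 3.

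In these 3 genes, and also in Ces1a, Ces1b, Ces1c and Ces1g, KO 2 and KO 4 were lower than KO 5 and KO 6. The summed hepatocyte markers split the same way, and KO 5 and KO 6 are also the libraries with Xist. With KO 2 and KO 4 alone, the log2 changes in KO vs Het were -3.42 for Ces1e, -2.97 for Ces1f and -2.70 for Ces1d. The hepatocyte markers and Xist split these libraries alike, so their parts in the difference cannot be told apart, and neither was tested.

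Ces1c (gene number 13884), an esterase that mice secrete into plasma, was the most abundant Ces gene of the Het livers by FPKM. It had 1432, 1909, 2343 and 1825 CPM in KO_drug, 809.9, 648, 1281 and 1192 CPM in KO, and 1858, 3718, 3985 and 3186 CPM in Het. KO lay below both other groups, 3.24-fold below Het (log2 -1.70, SE 0.28, adjusted p = 0.000479). Ces1b had 290.3, 374, 418 and 354 CPM in KO_drug, 162, 127, 263 and 248 CPM in KO, and 343, 610.1, 641 and 523 CPM in Het, and was lower in KO than in Het by 2.65-fold. The rises in KO_drug vs KO were at the edge of the threshold for both. The adjusted p of Ces1c was 0.0304 (log2 0.93), or 0.0579 to 0.0900 without KO 2, KO 4, KO_drug 2, KO_drug 3 or KO_drug 4, and that of Ces1b was 0.0305 (0.84), or 0.0589 to 0.0862 without any 1 of the same libraries.

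Ces1g and Ces1a ran against the rest of their cluster. Ces1g (gene number 12623), whose loss in mice is known to raise liver lipid, had 385, 395, 365 and 316 CPM in KO_drug, 255, 189, 384 and 332 CPM in KO, and 61.7, 89.6, 112 and 43.7 CPM in Het. All knockout libraries lay above Het. It was 4.77-fold higher in KO_drug than in Het (log2 change 2.25, SE 0.28, adjusted p = 8.63e-05) and 3.78-fold higher in KO than in Het (1.92, SE 0.28, adjusted p = 0.000197), and KO_drug overlapped KO. Ces1a had 6, 0, 0 and 6 counts in KO_drug, 15, 13, 45 and 37 counts in KO and none in Het, which put KO at least 24.9-fold above 3 counts over the Het libraries.

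Ces3a, Ces3b and Ces4a were lower in KO. Ces3a had 759, 1636, 1457 and 1491 CPM in KO_drug, 1334, 928, 645 and 1114 CPM in KO, and 1239, 3119, 3008 and 2358 CPM in Het. KO lay 2.42-fold below Het (log2 change -1.27, SE 0.32, adjusted p = 0.00685), with KO 2 above Het 1, and the other comparisons were not called. With limma on FPKM the KO vs Het call of Ces3a was lost (log2 -0.70, adjusted p = 0.0517). Ces3b had 203, 507, 358 and 277 CPM in KO_drug, 158, 67.2, 119.7 and 168 CPM in KO, and 376, 952, 879 and 705 CPM in Het. KO lay below both other groups, 5.67-fold below Het (log2 -2.50, SE 0.37, adjusted p = 0.000210) and 2.62-fold below KO_drug. Its call in KO_drug vs Het (log2 -1.11, adjusted p = 0.0371) was lost without KO_drug 1, KO_drug 3, KO_drug 4, Het 2, Het 3 or Het 4 (adjusted p = 0.0658 to 0.102). Ces3a and Ces3b share 30.9% and 26.1% of their 50-base stretches with other genes. Ces4a averaged 0.450 ± 0.355 CPM in KO_drug, 0.276 ± 0.168 CPM in KO and 4.91 ± 3.15 CPM in Het, and lay below Het by 10.8-fold in KO_drug and 18.4-fold in KO. Without KO_drug 2 its log2 change in KO_drug vs Het was -4.08 in place of -3.44.

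Genes that serve these enzymes were followed as lists. For these lists, the shares of all tested genes called higher and lower were 23% and 17.7% in KO vs Het. They were 8.8% and 11% in KO_drug vs KO and 13% and 8.45% in KO_drug vs Het. Of 10 genes of cosubstrate supply, 1 rose and 2 fell in KO vs Het, 1 rose and 1 fell in KO_drug vs KO, and 4 rose and 3 fell in KO_drug vs Het, with medians of -0.28, 0.20 and -0.05. Ugdh, which makes UDP-glucuronic acid, was 1.92-fold higher in KO_drug (333 ± 71.2 CPM) and 1.83-fold higher in KO (317 ± 47.5 CPM) than in Het (173 ± 26.7 CPM). Ugp2, which makes its precursor UDP-glucose, was 1.73-fold lower in KO_drug (256 ± 47.0 CPM) and 1.58-fold lower in KO (280.0 ± 62.1 CPM) than in Het (443 ± 69.5 CPM). Papss2, a synthase of PAPS, was at 448 ± 138 CPM in KO_drug, 221 ± 15.3 CPM in KO and 203 ± 33.7 CPM in Het, 2.03-fold higher in KO_drug than in KO and 2.21-fold higher than in Het. The other synthase, Papss1, was lower in KO_drug by 0.52 against KO and 0.73 against Het on the log2 scale. The rest of the calls were Bpnt1, which removes the spent donor (log2 -0.43 in KO vs Het), and in KO_drug vs Het the transporters Slc35b2 (-0.64) and Slc35b3 (0.54) and the phosphatase Impad1 (0.58).

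Of 6 exporters of conjugates, 3 rose in KO vs Het, 2 rose with the agonist in KO_drug vs KO, 4 rose in KO_drug vs Het, and none fell, with medians of 0.28, 0.70 and 0.94. Abcc2, the canalicular exporter of glucuronides, was at 866 ± 198 CPM in KO_drug, 464 ± 93.3 CPM in KO and 421 ± 113 CPM in Het. It was 1.87-fold higher in KO_drug than in KO and 2.06-fold higher than in Het, and was not called in KO vs Het. Abcc4, an exporter of the blood-facing membrane, was at 25.0 ± 10.4 CPM in KO_drug, 16.2 ± 5.17 CPM in KO and 3.27 ± 0.507 CPM in Het, so both knockout groups were higher than Het (7.63-fold and 4.96-fold). Abcb1a, a P-glycoprotein, was 7.50-fold higher in KO_drug and 10.05-fold higher in KO than in Het, Abcg2 was called in both comparisons with Het (log2 0.85 in KO_drug and 0.41 in KO), and Abcc6 was higher in KO_drug than in KO (1.13). Of 7 listed genes that reverse conjugation, 6 were tested, among them beta-glucuronidase and sulfatases, and edgeR called 0 in each comparison, with medians of -0.01, -0.10 and 0.07. At an unadjusted p under 0.05 the agonist contrast with KO held 1 of them (Arsa), that of KO_drug with Het held 1 (Ids) and KO vs Het held 0. Of 8 other liver esterases, 2 rose and 4 fell in KO vs Het, 2 rose in KO_drug vs KO, and 1 rose and 1 fell in KO_drug vs Het, with medians of -0.26, 0.33 and -0.00. Aadac, a lipid-hydrolysing deacetylase, was lower by 0.96 in KO and 0.55 in KO_drug against Het. Lipc, hepatic lipase, fell by 0.70 in KO vs Het and was higher by 0.73 in KO_drug vs KO. The esterases that rose against Het are not named here.

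Among 12 receptors and factors known to control these genes, 1 rose and 5 fell in KO vs Het, 2 rose in KO_drug vs KO, and 2 rose and 3 fell in KO_drug vs Het, with medians of -0.11, 0.09 and -0.12. Nr1i2, the xenobiotic receptor PXR, was at 111 ± 30.9 CPM in KO_drug, 65.3 ± 7.49 CPM in KO and 59.2 ± 14.4 CPM in Het, 1.71-fold higher in KO_drug than in KO. Nr1i3, the receptor CAR, was lower in KO than in Het by 1.86-fold (41.9 ± 20.7 against 78.1 ± 11.4 CPM). Hnf4a, a regulator of hepatocyte genes, was at 486 ± 63.5 CPM in KO_drug, 439 ± 23.8 CPM in KO and 838 ± 79.3 CPM in Het, and differed between KO_drug and KO by 0.15 (SE 0.13, adjusted p = 0.473). Nfe2l2, the oxidant-response factor NRF2, was higher than Het in both knockout groups (log2 0.65 in KO_drug and 0.91 in KO). Nr1h3 and Nr1h2, which encode the LXRs, were called in no comparison.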

How the data were processed

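RNA from flash-frozen liver was made into libraries with a stranded total RNA kit, per the labels' protocols. FastQC 0.11.7, StringTie 2.1.3b and build mm10 were used, per the submitters' processing notes, and no source used here gives the aligner, counter or strand setting. Deposited by the authors were whole-number read counts per gene and library, not normalized, and an FPKM per gene and library in the same table, per the file headers. Of its columns, 3 without a name were not used.

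edgeR's filterByExpr, at a minimum count of 10 and a total of 15, left 13379 genes. The 12 libraries entered 1 quasi-likelihood fit in edgeR 4.0.16 (R 4.3.3) with TMM scaling and group means. Tests were two-sided, adjusted after Benjamini and Hochberg (all 13379 genes), and called at an adjusted p under 0.05. SE is that of the log2 change. The p-values measure the spread between these libraries, since nothing states how the animals were raised. The code was checked on simulated data. Folds against a group at 0 use 3 counts over that group and cover counting error only.

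Alternatives were total-count scaling, no filter, DESeq2 1.42.0, limma 3.58.1 on log2(FPKM + 0.1) for genes with a mean FPKM of at least 0.1, a fit of only the 2 groups compared, a replicate block, each library left out, and KO 2 with KO 4 alone as the KO group. All 60 enzymes matched RefSeq (GRCm38.p6) by gene number. Values in every library are given for called enzymes that average 10 CPM or more in any group, and other tested enzymes are given in brief. The enzymes, gene lists and marker lists were chosen with earlier results of these data known.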

Additional observations from a re-analysis of the deposited data

Results flagged for a closer look

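In 10 of 141 sets of 4 libraries (47 enzymes in 3 groups), 1 library stood far above the other 3 by Dixon's criterion, which flags about 5% of sets by chance. The 141 include the Het sets of Ces1a and Sult4a1, which had no count and could not be tested. The 5% does not apply to sets with 1 library above 0, as for Sult3a1 and Sult2a2 in Het and Sult2a2 in KO_drug. All 10 were the highest of their group. Het 1 accounted for 5 of them. It had 1404 CPM of Sult2a8, with the next Het library at 897 CPM, and 66.5 CPM of Sult1b1, with the next at 30.3 CPM. It also had 1.6 CPM of Sult2a1, 0.98 CPM of Sult3a1 and 0.309 CPM of Sult2a2, where the next Het libraries had 0.26, 0 and 0 CPM. KO_drug 1 had 3.13 CPM of Sult2a1, with the next at 0.319 CPM, and 1.46 CPM of Sult2a2, with the others at 0. KO_drug 2 had 324 CPM of Sult1a1, with the next at 271 CPM. KO 2 had 11.4 CPM of Sult5a1, with the next at 4.57 CPM, and Het 2 had 448 CPM of Ugt2b35, with the next at 259 CPM.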

How the results depend on the processing

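No called change of an enzyme reversed its sign in any alternative. In KO vs Het, 8 enzymes were called higher with the replicate block and 8 with KO 2 and KO 4 alone, against 13. Calls over all genes, in either direction, were 3234 of 13379 with the block and 4842 of 13789 with KO 2 and KO 4 alone. The main fit had 5448 of 13379. In KO_drug vs KO, 12 were called higher under total-count scaling and 11 on FPKM, against 19, and the count of lower enzymes, 1 in the report, was 4 under total-count scaling, 3 in the fit of only the 2 groups, 3 with DESeq2, 6 on FPKM (with Sult2a3, which the count filter had set aside), 0 with the replicate block and 0 with KO 2 and KO 4 alone. Over all tested genes, KO_drug vs KO had 4255 calls under total-count scaling, 4785 on FPKM and 3313 with DESeq2, against 2654. It had 2445 in the fit of only the 2 groups, 1801 with the replicate block and 2661 with KO 2 and KO 4 alone. In KO_drug vs Het, 11 enzymes were called lower with the replicate block and 11 with DESeq2, against 7. Over all tested genes, those settings had 2197 and 3446 calls, against 2865. The cause of these shifts was not tested. Leaving out 1 library gave 10 to 13 higher and 20 to 24 lower in KO vs Het, 10 (without KO_drug 3) to 20 (without KO_drug 1) higher and 1 to 2 lower in KO_drug vs KO, and 10 to 12 higher and 4 (without KO_drug 1, KO_drug 4 or Het 2) to 11 (without Het 1) lower in KO_drug vs Het. Without KO 4, 12 were higher in KO_drug vs KO, and the lower count was 2 without KO_drug 1 or KO 4. Over all tested genes, leaving out 1 library gave 4687 to 5267 calls in KO vs Het. The range was 1632 to 2935 in KO_drug vs KO and 2247 to 2800 in KO_drug vs Het. Libraries with equal replicate numbers were not taken as pairs, since the labels name nothing they share and not every correlation of their deviations passed 0.1. These were 0.107 and -0.0183 in KO vs Het (numbers 2 and 4), 0.120 and 0.0974 in KO_drug vs KO (2 and 4), and -0.0793, 0.104, 0.104 and 0.177 in KO_drug vs Het (1 to 4). The block uses the libraries whose number occurs in both groups, so it has fewer libraries in the comparisons with KO. With it the calls of Ces1a, Ces2g, Sult2a2, Sult4a1, Ugt1a2, Ugt1a6a and Ugt1a6b in KO vs Het (adjusted p = 0.0867 to 0.386), of Sult1c2, Sult1d1, Sult2a7, Ugt1a10, Ugt2a3 and Ugt2b37 in KO_drug vs KO (0.0514 to 0.285) and of Ugt1a5 in KO_drug vs Het (0.0897) did not pass. Depth limits the scarce enzymes most: Ces1a, Sult4a1 and Sult1e1 had 0, 0 and 19 counts over the Het libraries.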

Other observations

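The 60 enzymes together took 1.203 to 1.498% of all counts in KO_drug, 0.897 to 1.10% in KO and 1.12 to 1.58% in Het. Their summed FPKM averaged 3136 ± 252 in KO_drug, 2138 ± 281 in KO and 3147 ± 708 in Het for the Ces genes, 1616 ± 180.1, 1458 ± 118 and 1760.5 ± 274 in the same order for the Ugt genes, and 481 ± 24.5, 375 ± 32.7 and 518 ± 181 for the Sult genes (SD, n = 4 each). Het 1 had a summed Sult FPKM of 786 and the other Het libraries 390.4 to 459.5, while its summed Ces FPKM of 2125 was the lowest of the Het libraries.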
